A study of Drosophila melanogaster with 4 samples.

Results

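The miR-10 hairpin of Drosophila melanogaster gives a 5' strand, miR-10-5p, and a 3' strand, miR-10-3p, and both were followed in small RNAs bound to the Argonaute proteins Ago2 and Ago1. Its members were the listed sequences that match either mature strand exactly over at least 14 nt, with a 5' start shifted by at most 8 nt and a 3' end shifted by at most 10 nt. Of 7181 distinct sequences in the 4 libraries, 107 were members, 67 of miR-10-5p and 40 of miR-10-3p, and these 2 strands are 2 of 634 arms. The libraries came from whole male flies that carried FLAG-HA-Ago2, a tagged Ago2 present in every group, and there was 1 library for each of Ago2 at 30 d, Ago2 at 3 d, Ago1 at 30 d and Ago1 at 3 d of age. Tagged Ago2 was captured on anti-FLAG M2 beads and Ago1 by the antibody ab5070, so protein and capture method cannot be told apart. The listed reads numbered 34554191 at 30 d and 13491805 at 3 d with Ago2, and 26451651 at 30 d and 26636441 at 3 d with Ago1. Each group has 1 library, so differences have no replicate check and were not tested. Levels are in RPM, a library's reads scaled to 1000000 listed reads, and the 95% intervals in brackets cover counting error only.

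A miRNA hairpin is cut to a duplex of 2 strands, and an Argonaute protein keeps one of them as the guide, whose bases 2 to 8, the seed, choose the target mRNAs. In flies Ago1 takes most miRNA guides and favours a U at the 5' end, while Ago2 takes siRNAs and those miRNA strands that lie in well-paired duplexes. The 3' ends of guides held by Ago1 can be trimmed by the exonuclease Nibbler, and guides held by Ago2 carry a 3' methyl group added by Hen1. The mir-10 gene lies in the Antennapedia complex, the anterior Hox gene cluster, and its vertebrate relatives also lie in Hox clusters. Both strands of fly miR-10 have been described as functional guides. In the annotation (BDGP6) the hairpin spans 77 nt on the minus strand of chromosome 3R, inside an exon of the long non-coding RNA lncRNA:CR42651, which has 2 exons on the same strand. The nearest protein-coding genes are the Hox genes Dfd, 7.078 kb away, and Scr, 13.538 kb away. The submitters' processing notes name an earlier build, dm3, so no coordinates are given.

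The most abundant form of each strand is shown first because all start and end shifts below are counted from it. Capitals mark the seed, and T stands for U as in the files.
miR-10-5p: aCCCTGTAgatccgaatttgtt
miR-10-3p: cAAATTCGgttctagagaggttt
These forms have 22 nt and 23 nt, the annotated lengths of both arms. All 107 members lie inside a hairpin of 68 nt put together from listed sequences. Its outer ends were taken from members, so their lying inside it was partly set by construction. Capitals mark the 2 most abundant forms in the hairpin.
miR-10 hairpin: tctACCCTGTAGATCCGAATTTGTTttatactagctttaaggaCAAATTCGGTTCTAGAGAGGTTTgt
The loop of 18 bases was read from a listed sequence of 40 nt that begins with miR-10-5p. This sequence was picked because its length past miR-10-5p equals the annotated distance between the arms, so that match was set by the choice. The predicted fold (RNAfold) of these 68 nt had a free energy of -25.2 kcal/mol. The annotated hairpin has 77 nt, so bases at its outer ends were missing from the fold. In the fold miR-10-5p was unpaired at positions 6 and 11, and miR-10-3p at positions 10, 15, 18, 22 and 23. Positions are counted from the 5' end of each strand.

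miR-10-5p was the major strand of the hairpin in all 4 libraries, and its level was higher with Ago2 than with Ago1 at both ages. It had 59015 RPM at 30 d and 40038 RPM at 3 d with Ago2, against 26966 RPM at 30 d and 19952 RPM at 3 d with Ago1. These levels made it the arm of rank 3, 5, 8 and 10 in the same order, where an arm is a group of overlapping sequences taken as 1 strand of a hairpin. The other strand had the opposite order of proteins. miR-10-3p had 2390 RPM at 30 d and 1841 RPM at 3 d with Ago2, against 11825 RPM at 30 d and 17277 RPM at 3 d with Ago1. Its rank was 20, 22, 13 and 11. No spread between samples exists for these levels, so the order of neighbouring libraries is that of these libraries alone.

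**Figure D1:**
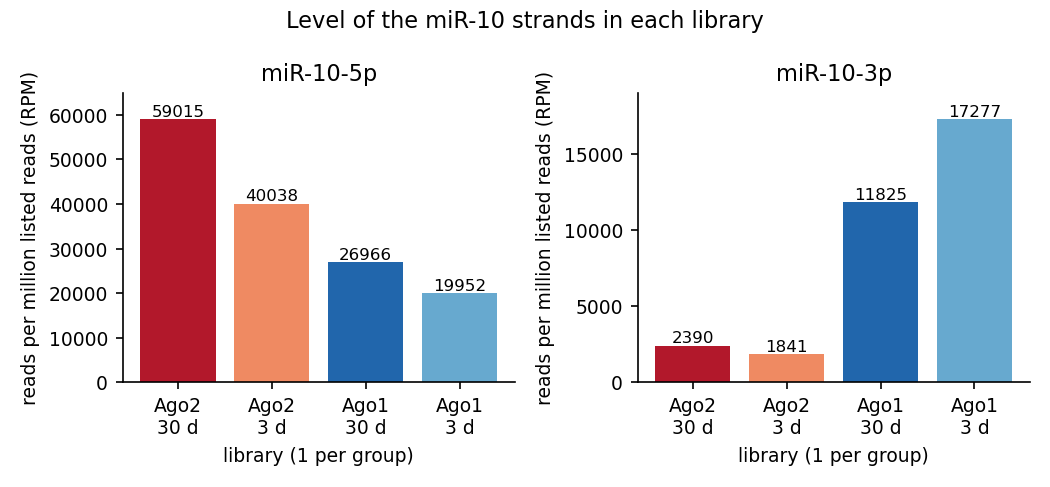
Level of each miR-10 strand in RPM (y axis, starting at 0, with its own scale per strand) in the 4 libraries, 1 bar per library with its value above. miR-10-5p is highest with Ago2 at 30 d, at 59015 RPM, and miR-10-3p is highest with Ago1 at 3 d, at 17277 RPM.

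The strand choice of the hairpin therefore differed between the immunoprecipitates. miR-10-3p made up 3.89% (3.87 to 3.92) of the reads of both strands at 30 d and 4.40% (4.34 to 4.45) at 3 d with Ago2. With Ago1 it made up 30.5% (30.4 to 30.6) at 30 d and 46.4% (46.3 to 46.5) at 3 d. There were 24.7 reads of miR-10-5p per read of miR-10-3p at 30 d and 21.7 at 3 d with Ago2, against 2.28 at 30 d and 1.15 at 3 d with Ago1. Reads with Ago1 at 3 d thus came from both strands in near equal number, while reads with Ago2 came almost wholly from the 5' strand. Since both strands of a library share its total, this share does not depend on how libraries are scaled.

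The comparison of Ago2 with Ago1 sets a strand's share of the listed reads with each protein side by side, not the amounts bound. Ratios are log2 values of RPM plus 1 RPM, and their background is all arms that average 100 RPM or more across both libraries. miR-10-5p had a log2 ratio of 1.13 (1.13 to 1.13) at 30 d, or 2.19-fold, and of 1.005 (0.999 to 1.01) at 3 d, or 2.01-fold. It was thus at least 2-fold higher at both ages, as were 31.0% of 87 arms at 30 d and 26.7% of 90 arms at 3 d. At 3 d the value lay at the 2-fold limit itself, a log2 of 1, with the lower end of its interval just under it. For miR-10-3p the ratio was -2.31 (-2.32 to -2.30) at 30 d, which is 4.95-fold lower with Ago2, and -3.23 (-3.25 to -3.21) at 3 d, which is 9.38-fold lower. It was among the 60.9% of arms at 30 d and the 60.0% at 3 d that were at least 2-fold lower.

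Against all arms, miR-10-5p stood on the Ago2 side and miR-10-3p near the middle. The median log2 ratio over all arms was -2.53 at 30 d and -3.10 at 3 d. miR-10-5p ranked 26 of 87 from the highest at 30 d and 24 of 90 at 3 d. miR-10-3p, although much lower with Ago2, ranked 41 of 87 and 48 of 90. The first base puts these ranks in context, as miR-10-5p starts with A and miR-10-3p with C. Among arms that start with A the median ratio was -1.25 (14 arms) at 30 d and 0.26 (16 arms) at 3 d, and miR-10-5p ranked 6 and 8 among them. Among arms that start with C the median was 2.65 at 30 d and 0.77 at 3 d (21 arms each), and miR-10-3p ranked 18 at both ages. Arms that start with U had medians of -3.99 (43 arms) and -4.66 (44 arms). miR-10-3p was thus among the C-starting arms with the lowest ratio of Ago2 over Ago1.

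**Figure D2:**
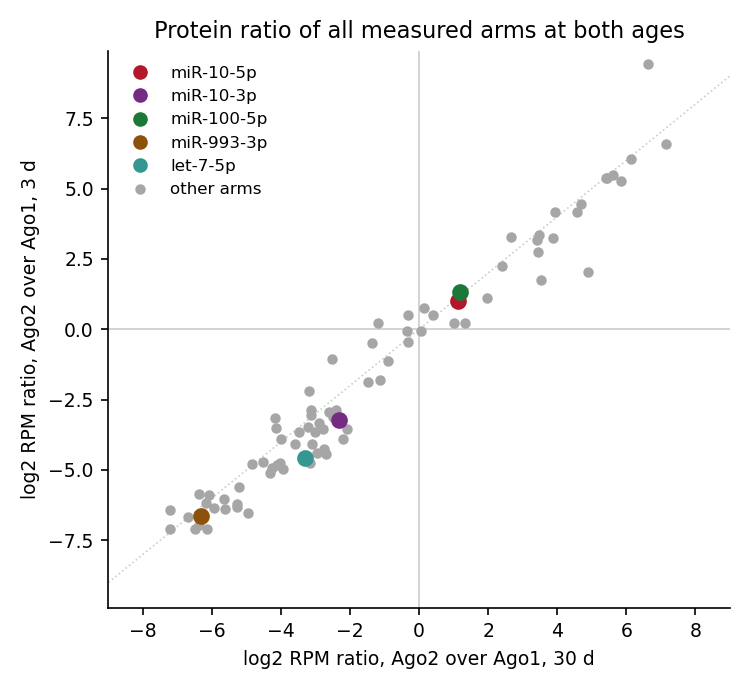
Log2 ratio of Ago2 over Ago1 at 30 d (x axis) and 3 d (y axis) for the arms measured at both ages, 1 point per arm, with the dotted line where both ages are equal. miR-10-5p (1.13 and 1.005) lies beside miR-100-5p right of zero, and miR-10-3p (-2.31 and -3.23) lies below zero on both axes.

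Of the hairpins with named arms, 18 had at least 100 reads of both strands together in every library, and for each the share of the strand with the lower summed level was taken. In 11 of 18 hairpins at each age this minor strand had a larger share with Ago2 than with Ago1. As the minor strand was named from these same libraries, its shares were partly set by that choice. miR-10 was among the 7 in which the share was smaller with Ago2, with differences of -26.6 percentage points at 30 d and -42.0 percentage points at 3 d. The share of miR-10-3p ranked 10 of 18 at 30 d and 9 at 3 d with Ago2, and 4 at 30 d and 3 at 3 d with Ago1. The median share over the 18 hairpins was 5.15%, 4.12%, 2.87% and 2.55% in the same order. The wide split of miR-10 therefore lay on the Ago1 side, where the minor strand of most hairpins was rare. It was not particular to miR-10, whose difference ranked 15 of 18 from the highest at 30 d and 16 at 3 d. The differences at 30 d and 3 d were -61.7 and -57.6 percentage points for miR-100-5p and -59.1 and -92.8 for miR-263b-5p. For miR-278-3p they were -53.5 and -41.6. For miR-993, another miRNA gene of the same complex, 33.055 kb away, the minor strand was 5p, and its share was larger with Ago2. miR-993-5p made up 77.6% (74.8 to 80.2) of reads at 30 d and 56.6% (49.9 to 63.1) at 3 d with Ago2. With Ago1 it made up 12.2% (11.7 to 12.7) at 30 d and 7.06% (6.73 to 7.40) at 3 d. By arm, miR-10 had the same order, as miR-10-5p made up 96.1% and 95.6% with Ago2 at 30 d and 3 d. Its shares with Ago1 were 69.5% and 53.6%.

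**Figure D3:**
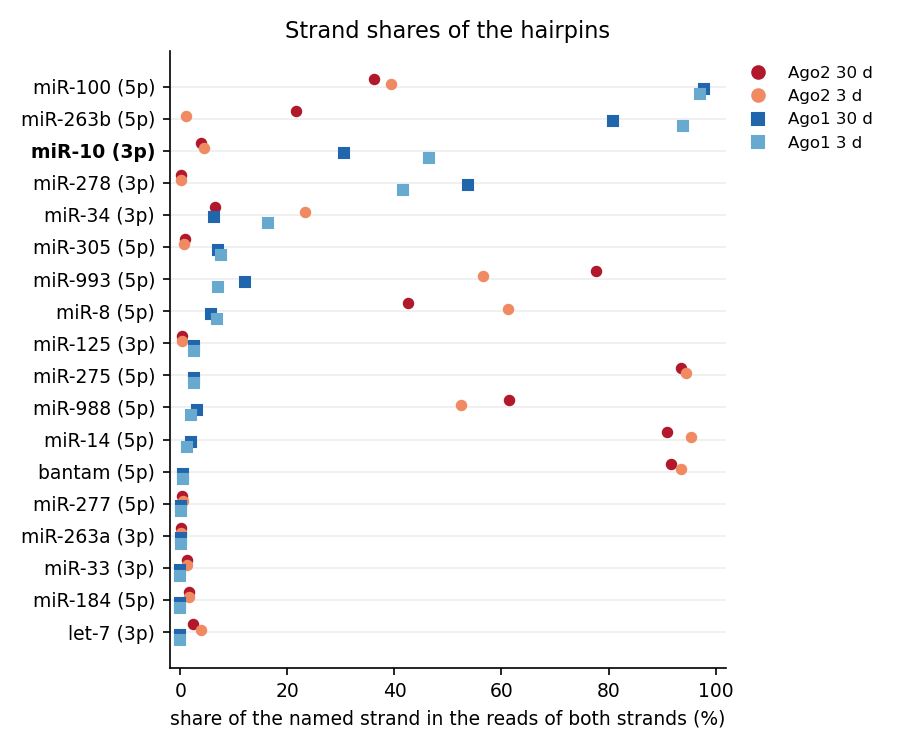
Share of the named strand in the reads of both strands (x axis, %) for 18 hairpins (rows), 1 point per library, ordered by the value with Ago1 at 3 d. The miR-10-3p points lie at 3.89% and 4.40% with Ago2 and at 30.5% and 46.4% with Ago1. For bantam, miR-14 and miR-275 the named strand is 5p, and its share is higher with Ago2, as is that of miR-10-5p. For miR-100, miR-263b and miR-278 the share of the named strand is lower with Ago2, as is that of miR-10-3p.

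The 5' start decides the seed, and here the proteins held different forms of miR-10-5p. Nearly all reads used the main start, 96.6% at 30 d and 96.4% at 3 d with Ago2, against 99.2% with Ago1 at both ages. The forms that start 1 base earlier or 1 base later are shown because each has another seed.
miR-10-5p, 1 base earlier: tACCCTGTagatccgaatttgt
miR-10-5p, 1 base later: cCCTGTAGatccgaatttgtt
miR-993-5p: tACCCTGTagttccgggctttt
The earlier start gives the seed of the most abundant form of miR-993-5p, printed for comparison. It is also the start that vertebrate miR-10 is known for.

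Starts 1 base earlier made up 1.86% (1.84 to 1.88) of miR-10-5p reads at 30 d and 1.79% (1.75 to 1.82) at 3 d with Ago2. With Ago1 they made up 0.234% (0.223 to 0.245) at 30 d and 0.241% (0.229 to 0.255) at 3 d. Starts 1 base later made up 1.42% (1.41 to 1.44) and 1.63% (1.60 to 1.66) with Ago2 at 30 d and 3 d, against 0.336% (0.323 to 0.350) and 0.395% (0.379 to 0.412) with Ago1 at 30 d and 3 d. In RPM the earlier start had 1098 at 30 d and 716 at 3 d with Ago2, against 63.1 at 30 d and 48.2 at 3 d with Ago1. The log2 ratio of this start, Ago2 over Ago1, was 4.10 (4.05 to 4.19) at 30 d and 3.87 (3.81 to 3.98) at 3 d, against 1.09 and 0.96 for the main start. For the later start the ratio was 3.20 (3.15 to 3.27) at 30 d and 3.03 (2.98 to 3.12) at 3 d. Reads that start 2 bases later had ratios of 0.94 at 30 d and 0.72 at 3 d. The earlier form begins with U, the first base of the arms with the lowest median ratio above.

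The earlier start came with an earlier end. Of the reads that start 1 base earlier, 95.9% at 30 d and 97.2% at 3 d with Ago2 also end 1 base earlier, which keeps the length at 22 nt. With Ago1 the shares were 59.2% at 30 d and 64.1% at 3 d. Among reads with the main start, ends 1 base early made up 22.6% and 13.9% with Ago2 at 30 d and 3 d, against 24.6% and 17.7% with Ago1 at 30 d and 3 d. Of the reads that start 1 base later, 39.9% and 41.7% with Ago2 at 30 d and 3 d also end 1 base later, against 19.6% and 11.7% with Ago1 at 30 d and 3 d. The whole window of 22 nt was thus displaced more often in the reads with Ago2.

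On the 3' strand, starts other than the main one made up 0.958% of miR-10-3p reads at 30 d and 1.25% at 3 d with Ago2, against 1.23% at 30 d and 1.52% at 3 d with Ago1. The commonest of them starts 1 base later and has another seed.
miR-10-3p, 1 base later: aAATTCGGttctagagaggttt
Reads with this start had log2 ratios of Ago2 over Ago1 of -2.82 (-3.04 to -2.76) at 30 d and -3.41 (-3.67 to -3.30) at 3 d, against -2.31 and -3.23 for the whole strand.

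**Figure D4:**
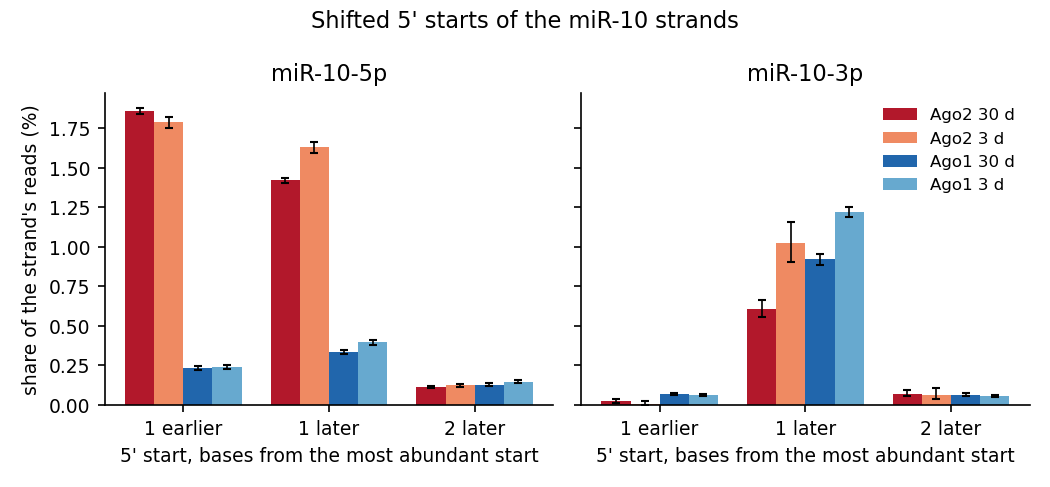
Share of each strand's reads (y axis, %) that start 1 base earlier, 1 base later or 2 bases later than the most abundant start, with Wilson 95% intervals that cover counting error only. For miR-10-5p the starts shifted by 1 base reach 1.42% to 1.86% with Ago2 and stay at 0.234% to 0.395% with Ago1.

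Most length variation lay at the 3' end. miR-10-5p had a mean length of 21.7 nt at 30 d and 21.8 nt at 3 d with Ago2, against 21.6 nt at 30 d and 21.8 nt at 3 d with Ago1. The means for miR-10-3p were 22.5 nt with Ago2 at both ages, against 22.7 nt at 30 d and 22.8 nt at 3 d with Ago1. The 6 commonest forms of miR-10-5p held 98.6% to 99.4% of its reads in each library, and the 5 commonest of miR-10-3p held 98.4% to 99.5%.

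miR-10-5p reads that end before the main 3' end made up 25.9% (25.8 to 25.9) at 30 d and 16.4% (16.3 to 16.5) at 3 d with Ago2. With Ago1 they made up 30.3% (30.2 to 30.4) at 30 d and 19.1% (19.02 to 19.2) at 3 d. The older flies had more of these shortened reads with both proteins. The form of 20 nt, 2 bases short, had 1101 RPM at 30 d and 448 RPM at 3 d with Ago2, against 1426 RPM at 30 d and 245 RPM at 3 d with Ago1. As a share of the strand it had 1.87% and 1.12% with Ago2 at 30 d and 3 d, against 5.29% and 1.23% with Ago1 at 30 d and 3 d. It had the highest age ratio of the 6 commonest forms, with a log2 of 30 d over 3 d of 1.30 (1.26 to 1.34) with Ago2 and 2.54 with Ago1. With Ago2 the form of 21 nt with the main start was close, at 1.27 (1.26 to 1.28), and the intervals overlap. With Ago1 that form had 0.91.

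For miR-10-3p the order of the proteins was the other way round. Early ends made up 38.3% (38.0 to 38.6) at 30 d and 41.4% (40.8 to 42.1) at 3 d with Ago2. With Ago1 they made up 28.1% (27.9 to 28.2) at 30 d and 17.8% (17.7 to 17.9) at 3 d. The difference of 30 d minus 3 d was -3.15 percentage points with Ago2 and 10.2 percentage points with Ago1. Nearly all of these reads were 1 base short, and the full form of 23 nt held 61.0% and 57.7% with Ago2 at 30 d and 3 d, against 71.0% and 80.9% with Ago1 at 30 d and 3 d. Reads of 19 nt or shorter had a higher share with Ago2 at 30 d, 1.28%, than with Ago2 at 3 d (0.330%), Ago1 at 30 d (0.187%) or Ago1 at 3 d (0.175%).

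**Figure D5:**
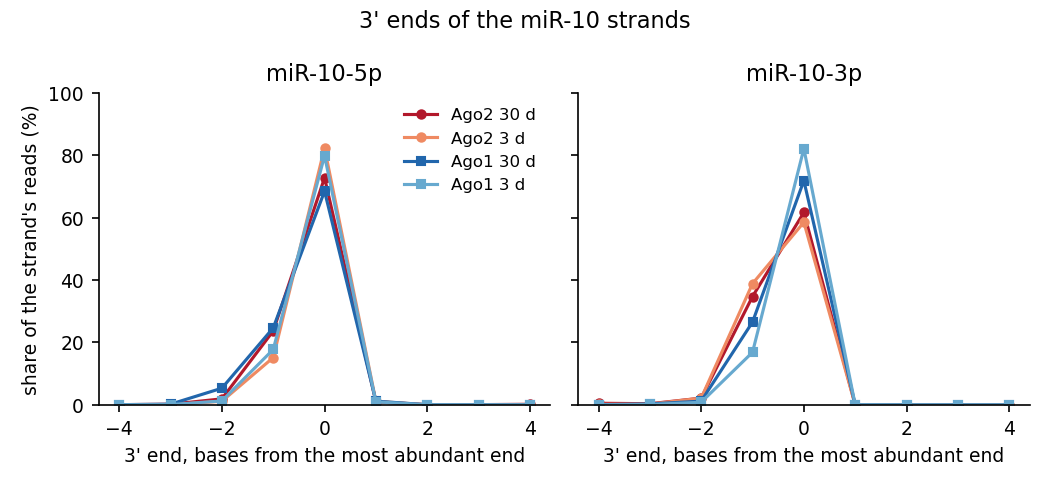
Share of each strand's reads (y axis, %) by 3' end, in bases from the most abundant end (x axis, negative is shorter), 1 line per library. Both strands end mainly at 0 or 1 base short, and the miR-10-3p share at 0 is highest with Ago1 at 3 d.

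Some miR-10-5p reads run past the usual end into the loop, and their ratio of Ago2 over Ago1 differed with their length. The form of 23 nt, 1 base past the end, had 247 RPM at 30 d and 178 RPM at 3 d with Ago2, against 302 RPM at 30 d and 181 RPM at 3 d with Ago1, and log2 ratios of Ago2 over Ago1 of -0.29 and -0.03. Forms of 25 nt or longer were mainly from the Ago2 libraries, a length class chosen after its values were seen. The rare forms of 33 to 40 nt, counted apart, had 4 reads at 30 d and 7 reads at 3 d with Ago2, against 10 reads at 30 d and 5 reads at 3 d with Ago1. The commonest form in the class has 26 nt and keeps the main start.
miR-10-5p, 26 nt: aCCCTGTAgatccgaatttgttttat
It had 3613 reads at 30 d and 409 at 3 d with Ago2, against 29 at 30 d and 150 at 3 d with Ago1. Forms of 25 nt or longer together had 182 RPM at 30 d and 56.4 RPM at 3 d with Ago2, against 1.93 RPM at 30 d and 6.19 RPM at 3 d with Ago1. As a log2 ratio of Ago2 over Ago1 this is 5.97 at 30 d and 3.00 at 3 d. The raw counts, without the added 1 RPM, gave intervals of 6.17 to 6.99 and 2.94 to 3.44. No read of miR-10-3p of 25 nt or longer was listed with Ago2 at either age, which allows up to 0.0868 RPM at 30 d and 0.222 RPM at 3 d, and Ago1 had 2 such reads at 30 d and 1 at 3 d.

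The comparison of 30 d with 3 d asks whether a strand's share of the listed reads differs with age, not the amount bound. No ratio of either strand reached 2-fold with either protein. With Ago2, 2-fold higher levels at 30 d were found for 16.2% of 68 arms and 2-fold lower levels for 11.8%, and with Ago1 the shares were 1.22% and 1.22% of 82 arms. These counts, 11 higher and 8 lower with Ago2 and 1 and 1 with Ago1, depended on the scaling, and TMM factors gave 7 and 10 with Ago2 and 7 and 1 with Ago1. For miR-10-5p the log2 ratio of 30 d over 3 d was 0.56 (0.56 to 0.56) with Ago2, or 1.47-fold, and 0.43 (0.43 to 0.44) with Ago1, or 1.35-fold. The median over all arms was 0.35 with Ago2 and -0.02 with Ago1, and miR-10-5p ranked 24 of 68 and 13 of 82. For miR-10-3p the ratio was 0.38 (0.36 to 0.40) with Ago2 and -0.55 (-0.55 to -0.54) with Ago1, where it ranked 33 of 68 and 71 of 82. miR-10-3p was thus 1.30-fold higher with Ago2 and 1.46-fold lower with Ago1 at 30 d than at 3 d, and this difference in direction was not tested.

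With Ago1 the sum of both strands was nearly equal at both ages, 38791 RPM at 30 d and 37230 RPM at 3 d. At this scaling the age difference thus lay in the split between the strands. The near equality depends on the scaling, as TMM factors gave age ratios with Ago1 of 0.78 for miR-10-5p and -0.21 for miR-10-3p. The share of miR-10-3p at 30 d minus that at 3 d was -15.9 percentage points, the lowest value of the 18 hairpins. The median difference over the hairpins was 0.000679 percentage points, with 9 above and 9 below 0. Hairpins with a small share at 3 d could not fall as far, and the median share there was 2.55%. Among hairpins with larger shares, miR-263b-5p differed by -13.1, miR-34-3p by -10.1, miR-100-5p by 0.811 and miR-278-3p by 12.0 percentage points. With Ago2 the sum was 61405 RPM at 30 d and 41879 RPM at 3 d, and the share of miR-10-3p differed by -0.504 percentage points.

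The shortened and full forms had different age ratios. For miR-10-5p, early-ending reads had a log2 ratio of 30 d over 3 d of 1.22 (1.21 to 1.23) with Ago2 and 1.10 (1.09 to 1.11) with Ago1. Reads with the main end had 0.38 (0.38 to 0.39) and 0.21 (0.21 to 0.22). For miR-10-3p with Ago1, reads with the main end had -0.74 (-0.75 to -0.73) and early-ending reads 0.11 (0.09 to 0.12), so the lower level at 30 d lay in the full-length reads. With Ago2 the values were 0.45 (0.43 to 0.48) for the main end and 0.26 (0.23 to 0.29) for early ends. Early-starting miR-10-5p reads had 0.62 (0.58 to 0.65) with Ago2 and 0.38 (0.28 to 0.49) with Ago1, near the values of the whole strand.

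The ratio of Ago2 over Ago1 at 30 d minus that at 3 d was 0.13 (0.12 to 0.13) for miR-10-5p, which turned negative under 2 other scalings (-0.40 with TMM and -0.15 with totals that omit the 10 most abundant arms). For miR-10-3p it was 0.92 (0.90 to 0.94), positive under all scalings tried. The median over 91 arms was 0.39, 64 of them were above 0, and the strands ranked 58 and 17.

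Whole flies hold many cell types, and fewer cells of a type cannot be told apart from less RNA per cell. The 3 testis arms (miR-959-3p, miR-962-5p and miR-982-5p) were listed in every library, as were the other markers, and summed to 307 RPM at 30 d and 927 RPM at 3 d with Ago2, against 690 RPM at 30 d and 1251 RPM at 3 d with Ago1. miR-1-3p and miR-133-3p, the muscle list, summed to 132, 57.4, 2222 and 3203 RPM in the same order of libraries. These muscle arms differed from each other with age. The log2 ratio of 30 d over 3 d of miR-1-3p was 1.44 with Ago2 and -0.05 with Ago1, against 0.23 and -0.73 for miR-133-3p. The nervous system arm miR-124-3p had 0.666, 0.296, 9.68 and 6.46 RPM. The levels of these lists also differed with age, and their part in the age values of miR-10 was not tested.

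A list of 12 strands held those of other Hox cluster hairpins (miR-993, miR-iab-4 and miR-iab-8) and those of miR-100 with its cluster neighbours miR-125 and let-7, which lie on chromosome 2L. Of the 12, 11 were listed, and miR-iab-8-3p was not. Of these, 5 passed 100 RPM in the comparison of proteins, and at each age 3 were 2-fold or more above and 2 were 2-fold or more below Ago1 in the Ago2 library. Over all arms 31.0% were higher and 60.9% lower at 30 d, and 26.7% higher and 60.0% lower at 3 d. Their median log2 ratio was 1.18 at 30 d and 1.11 at 3 d. The higher ones were miR-100-5p, miR-100-3p and miR-125-5p of the let-7 complex, a cluster that times late development. The lower ones were let-7-5p and miR-993-3p. miR-100-3p passed 100 RPM only through Ago2, with 3.55 RPM at 30 d and 3.27 RPM at 3 d with Ago1. Its side was thus set by the filter, as was that of miR-993-3p, which passed only through Ago1. miR-993-3p, with 5.90 RPM at 30 d and 6.82 RPM at 3 d with Ago2, against 549 RPM at 30 d and 776 RPM at 3 d with Ago1, had ratios of -6.31 and -6.63 at 30 d and 3 d. miR-993-5p had 20.5 RPM at 30 d and 8.89 RPM at 3 d with Ago2, against 75.9 RPM at 30 d and 58.9 RPM at 3 d with Ago1. Only part of these reads have the seed that its most abundant form shares with the early-starting miR-10-5p, 3.54% of its reads at 30 d and 3.33% at 3 d with Ago2, against 78.6% at 30 d and 72.4% at 3 d with Ago1. These reads of miR-993-5p had 0.724 RPM at 30 d and 0.296 RPM at 3 d with Ago2, where the early-starting miR-10-5p had 1098 and 716 RPM. With Ago1 they had 59.7 RPM at 30 d and 42.7 RPM at 3 d, where the early-starting miR-10-5p had 63.1 and 48.2 RPM. In the comparison of ages with Ago2, 4 strands passed 100 RPM (let-7-5p, miR-125-5p, miR-100-3p and miR-100-5p), and 1 of them, let-7-5p, was 2-fold or more higher at 30 d, where 16.2% of all arms were higher and 11.8% lower. With Ago1, 4 strands passed (let-7-5p, miR-125-5p, miR-993-3p and miR-100-5p) and none was 2-fold or more higher or lower at 30 d, where 1.22% of all arms were higher and 1.22% lower. The strands of miR-iab-4 and miR-iab-8, from the posterior Hox complex, had at most 13.1 RPM in any library.

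Over the 4 libraries, the arm with a profile most like that of miR-10-5p was its relative miR-100-5p, which is shown because its seed differs.
miR-100-5p: aACCCGTAaatccgaacttg
Likeness was the Euclidean distance between log2 values centred on their mean, over the 91 arms that average 100 RPM or more. The distance was 0.22, against 0.59 for miR-252-5p, 0.60 for miR-125-5p, 0.61 for an unnamed arm, 0.64 for miR-305-3p and a median of 4.35. miR-100-5p had 362 RPM at 30 d and 265 RPM at 3 d with Ago2, against 160 RPM at 30 d and 106 RPM at 3 d with Ago1. Its ratio between the proteins was 1.18 at 30 d and 1.31 at 3 d, close to that of miR-10-5p at a far lower level. For miR-10-3p the nearest arms were miR-31b-5p (0.42), miR-190-5p (0.54), miR-277-3p (0.60), miR-9c-5p (0.63) and miR-305-5p (0.66), against a median of 3.09. The strands of miR-10 were 3.90 apart, which put miR-10-3p at rank 36 from miR-10-5p and miR-10-5p at rank 59 from miR-10-3p.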

How the data were processed

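For each of the 4 libraries the authors deposited raw counts of reads per distinct sequence, with no normalization. CASAVA 1.8.2, Bowtie and dm3 are named in the submitters' processing notes. For the trimming, the filters, the Bowtie version and the full depth, nothing is stated in the sources used here, so RPM and ratios are relative to the listed reads. A sequence listed repeatedly was counted once, which touched no miR-10 sequence. Exact overlap put the sequences into 634 arms. The 64 names used were recalled and not read from the files. Of them, 62 have an annotated arm, and 44 the same length. The members and lists were chosen with earlier results of these data known. Ratios used a pseudocount of 1 RPM and a minimum mean of 100 RPM. Intervals of ratios are exact conditional binomial intervals of the raw counts, shares have Wilson intervals, and differences of ratios use the delta method. They cover counting error only, since PCR copies are not independent molecules. A count of 0 allows up to 3 reads. Forms named are those with at least 1% of a strand's reads in a library and the 5 commonest of each strand, and the arms named are the fixed lists and the 5 nearest profiles. The form of 26 nt and the classes of 25 nt or longer and 19 nt or shorter, and the split of miR-993-5p by seed, were chosen after their values were seen. Alternatives were TMM (edgeR 4.0.16), median of ratios, totals without the 10 most abundant arms, a pseudocount of 10 RPM, a minimum of 10 RPM, a narrower match (5' shift at most 2 nt, 3' shift at most 3 nt), the most abundant form alone, forms of 20 to 24 nt, and repeats counted as listed. The calculations used Python 3.11.15, numpy 2.4.6, scipy 1.17.1 and ViennaRNA 2.7.2, and the ratio code was tested on simulated data.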

Additional observations from a re-analysis of the deposited data

Results flagged for a closer look

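Several miR-10 values moved in opposite directions between 3 d and 30 d with the 2 proteins, each from 1 library per group, and none of these differences was tested. The log2 ratio of 30 d over 3 d of miR-10-3p was 0.38 with Ago2 and -0.55 with Ago1. The same held for its main start (0.38 with Ago2 and -0.54 with Ago1) and its start 1 base earlier (0.53 and -0.41, from 1 to 293 reads in a library). It also held for its main end (0.45 and -0.74) and its most abundant form (0.46 and -0.74). The main start has 98.5% to 99.0% of the reads of miR-10-3p in each library. The main start, main end and most abundant form share most of their reads and are not separate observations. Reads of miR-10-3p of 19 nt or shorter had 2.16 with Ago2 and -0.44 with Ago1. The share of miR-10-3p reads ending early differed by -3.15 percentage points with Ago2 and 10.2 percentage points with Ago1. Forms of miR-10-5p of 25 nt or longer had 1.68 with Ago2 and -1.30 with Ago1.

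Sequences outside the match limits also belonged to the hairpin. They were 7 forms of 33 to 40 nt that begin with miR-10-5p and run further into the loop, with 26 reads in all, 4 with Ago2 at 30 d, 7 with Ago2 at 3 d, 10 with Ago1 at 30 d and 5 with Ago1 at 3 d. They lie outside the sequences the comparisons use. No control library without an immunoprecipitated protein was analysed here, so no background level can be set beside these counts.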

How the results depend on the processing

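No paired analysis was possible because each group has 1 library, and for the same reason no library could be left out. Other scalings moved the median of all arms by more than 0.1: with TMM by 0.49 (Ago2 over Ago1 at 3 d), 0.34 (30 d over 3 d with Ago1) and -0.18 (with Ago2), with the median of ratios by 0.80 and 0.85 (Ago2 over Ago1 at 30 d and 3 d), and without the 10 most abundant arms by 0.73, 1.0004 and, for age with Ago2, -0.23. The direction of the ratios of both strands was kept under every scaling, and so was their side of the 2-fold limit between proteins. The change with age of the Ago2 over Ago1 ratio of miR-10-5p (0.13) reversed, to -0.40 with TMM and -0.15 without the 10 arms, and was 0.071 with the median of ratios; the cause was not tested. The values below list, in order, Ago2 over Ago1 at 30 d, at 3 d, then 30 d over 3 d with Ago2 and with Ago1. For miR-10-5p they were 1.10, 1.499, 0.38 and 0.78 under TMM scaling, 1.94, 1.87, 0.60 and 0.53 with the median of ratios, 1.87, 2.02, 0.33 and 0.48 without the 10 arms, and 1.21, 1.04, 0.38 and 0.21 with the most abundant form alone. For miR-10-3p they were -2.34, -2.74, 0.19 and -0.21 under TMM scaling, -1.50, -2.37, 0.41 and -0.45 with the median of ratios, -1.57, -2.21, 0.15 and -0.50 without the 10 arms, and -2.52, -3.72, 0.46 and -0.74 with the most abundant form alone. The change with age for miR-10-3p was 0.40, 0.87, 0.65 and 1.19 under these settings, and 0.17 for miR-10-5p with the most abundant form alone.

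Counting repeats as listed gave 1.14 at 30 d and 1.02 at 3 d for miR-10-5p. The narrower match gave -2.32 at 30 d for miR-10-3p. The share of miR-10-3p with the most abundant forms alone was 3.32% with Ago2 at 30 d, 3.16% with Ago2 at 3 d, 31.4% with Ago1 at 30 d and 46.9% with Ago1 at 3 d, and 3.86% with Ago2 at 30 d under the narrower match. Mean lengths in the order Ago2 at 30 d, Ago2 at 3 d, Ago1 at 30 d and Ago1 at 3 d were 21.7, 21.8, 21.6 and 21.8 nt for miR-10-5p and 22.6, 22.5, 22.7 and 22.8 nt for miR-10-3p under the narrower match. With forms of 20 to 24 nt they were 21.7, 21.8, 21.7 and 21.8 nt, and 22.6, 22.5, 22.7 and 22.8 nt. A minimum of 10 RPM gave 44 arms at least 2-fold higher and 87 lower (Ago2 over Ago1 at 30 d), 41 and 90 (at 3 d), 25 and 17 (30 d over 3 d with Ago2) and 3 and 11 (with Ago1). Arms at least 2-fold higher at 30 d numbered, with Ago2, 7 under both TMM and the totals without the 10 arms, and with Ago1, 7 under TMM, 3 under the median of ratios and 2 without the 10 arms. A pseudocount of 10 RPM moved no ratio beyond its counting interval and no count by over 1.5 times. Depth limits mainly the rare forms, since 1 read is worth most in the shallowest library, Ago2 at 3 d.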
